A study of Mus musculus with 12 samples.

Results

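The regions described here are 251 autosomal windows of 100 kb in mouse hepatocytes, out of 24129 windows, in which H3K27me3 domains, the stretches the authors called as marked, covered less DNA in young adults than in pups. Members were chosen by measured cover: the percent of a window inside domains at postnatal day 14 (P14), minus the percent inside domains at 2 months (M2), had to be 20 points or more. The cover at the 2 ages is therefore a description of how the windows were picked and carries no test. The samples were hepatocytes from mice of genotype Wt, the cells of the liver that carry out most of its metabolism, isolated by perfusion and low-speed pelleting and fixed with formaldehyde. They comprised 4 H3K27me3 ChIP samples and 4 inputs at P14, each set from 2 males and 2 females, and 2 ChIP samples and 2 inputs at M2, of sex labelled unknown. The labels mark every M2 sample as a re-analysis of an earlier deposit and name the same antibody for both ages. Each age is represented by 1 domain list that its samples share. The lists say where domains were called, not how strong the signal was, so less cover at M2 is not a measured loss of signal. No spread between animals can be computed, and age cannot be told apart from sample origin, sex make-up or number of samples. Whether other liver cells were present could not be checked, since the lists carry no expression values.

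H3K27me3 is the trimethyl mark that Polycomb repressive complex 2 places on lysine 27 of histone H3, through its catalytic subunits EZH1 and EZH2. It marks genes held silent, most densely at the CpG-rich starts of developmental regulators, and it can spread as broad blankets over silent stretches between them. The liver passes from a growing tissue to the metabolic adult organ in the weeks after birth, and the series title places these samples in a study of that maturation. The P14 samples come from before weaning and the M2 samples from young adulthood.

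Autosomal windows more often differed in the other direction. Windows in which M2 cover exceeded P14 cover by 20 points or more numbered 3628, or 15% of all windows, against 1.04% for the 251 members. Over all windows the median cover was 16% at P14 and 25% at M2. Cover was higher at M2 in 15127 windows and higher at P14 in 8060, while 192 windows held no domain of either list. A window could be a member only if at least 20% of it was covered at P14, which was true of 9948 windows, and members made up 2.52% of those.

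Member windows were moderately to densely marked at P14. Their P14 cover ran from 20% to 86% with a median of 40%, and the other windows with 20% or more at P14 had a median of 34%. Member M2 cover ran from 0% to 62% with a median of 12%, where the other windows had a median of 45%. The difference within members had a median of 24 points and a highest value of 50. It reached 30 points in 57 members and 40 points in 18. By P14 cover, members made up 1.52% of windows covered at 20 to 29%, and between 3.02% and 3.66% in each 10-point class from 30 to 79%. The share was 1.44% from 80 to 89%, and none of the 98 windows at 90% or more was a member.

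**Figure D1:**
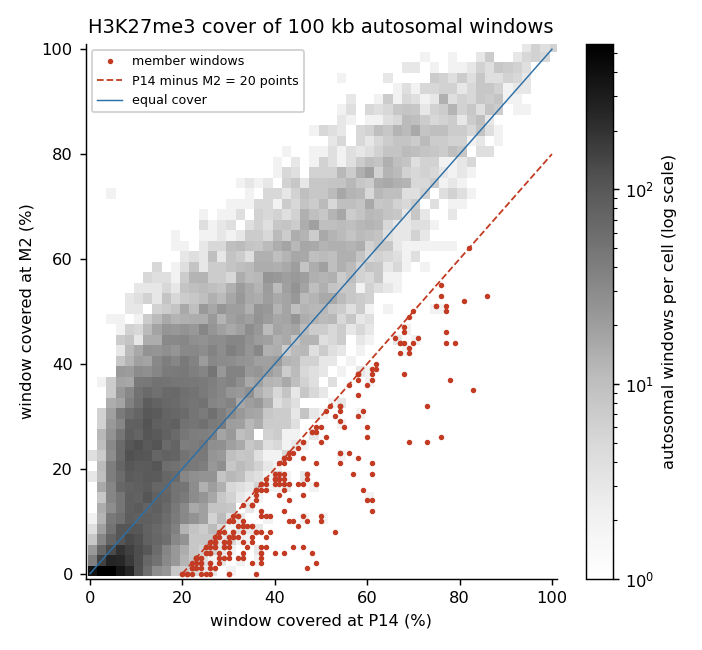
H3K27me3 domain cover of each 100 kb autosomal window, in percent, for P14 (x axis) and M2 (y axis). Grey cells count all 24129 windows on a log scale, red points are the 251 members, the dashed line marks a difference of 20 points and the blue line equal cover. Members reach from 20% to 86% at P14, and the bulk of windows lies above the line of equal cover.

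The limit of 20 points lay within a continuous range of differences. Exactly 20 points separated the ages in 38 members, and exactly 19 points in 38 windows that were not members. Just inside lay chr1:72900001-73000000, with 56% at P14 and 36% at M2, and chr1:188500001-188600000, with 37% and 17%. The next were chr1:192100001-192200000 at 41% and 21%, chr2:102600001-102700000 at 52% and 32%, and chr2:102800001-102900000 at 30% and 10%. Just outside lay chr1:39100001-39200000, with 34% at P14 and 15% at M2, and chr1:94600001-94700000, with 66% and 47%. The others were chr2:28900001-29000000 at 19% and 0%, chr2:103200001-103300000 at 44% and 25%, and chr2:148400001-148500000 at 54% and 35%. These are the first 5 in genome order on each side.

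The members ranged from windows nearly bare at M2 to windows thinned from a dense state, with a continuous range between. In 69 members M2 cover was 5% or less. These windows had a median P14 cover of 26% (lowest 20%, highest 49%), and 5.96% of their P14-covered length was also covered at M2. In 121 members M2 cover lay above 5% and up to 25%, from a median of 39% at P14, with P14 cover of up to 73%. In the other 61 members M2 cover was above 25%, from a median of 62% at P14, and 50.3% of the P14 length was covered again. The limits of 5% and 25% were set after the values were seen. P14 cover must exceed M2 cover by 20 points or more in a member. The rise in P14 cover over the 3 classes therefore follows in large part from the rule. The share covered again also rises in large part because the classes were cut by M2 cover. In 185 members M2 cover was below 50% of the P14 value of the same window. The rule fixes this for the 58 members covered at 20 to 29% at P14 and the 66 covered at 30 to 39%. The count was not made for the other windows.

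No M2 domain lay in 12 members. Their P14 cover had a median of 23%, and it consisted of small domains with a median length of 2 kb and a longest of 18 kb. The most covered of them at P14 was chr12:28600001-28700000, at 36%. At 30% came chr3:100600001-100700000 and chr6:23500001-23600000, followed by chr8:25600001-25700000 at 26%, chr4:60500001-60600000 at 25% and chr8:91500001-91600000 at 24%. P14 cover was 22% in chr11:83600001-83700000 and 21% in chr4:46800001-46900000, chr8:122800001-122900000 and chr17:3200001-3300000. It was 20% in chr6:120100001-120200000 and chr9:74700001-74800000, the lowest P14 value among all members. At the other end, chr5:36100001-36200000 had the highest P14 cover of any member, 86%, and was covered at 53% at M2. The window chr8:12700001-12800000 had the highest M2 cover, 62%, from 82% at P14, and every kilobase marked there at M2 was also marked at P14.

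The 15 windows with the largest differences came from 8 chromosomes and included 5 on chromosome 12. The largest was chr12:118700001-118800000, covered at 76% at P14 in 12 pieces of up to 25 kb, and at 26% at M2 in 9 pieces of up to 5 kb. Of its 26 kb of M2 cover, 25 kb lay inside P14 cover. A second window on that chromosome, chr12:101700001-101800000, had 61% at P14 and 12% at M2. It held a pair of 13 kb stretches covered at P14 alone, from 101727001 to 101740000 and from 101745001 to 101758000.

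P14 cover of chr11:53800001-53900000 was 73% and M2 cover 25%, of which 17 kb was a single piece. In chr18:24900001-25000000 cover was 83% at P14 and 35% at M2, and the longest piece measured 35 kb at P14 and 8 kb at M2. The next window, chr18:25000001-25100000, had 69% and 25%. In both of these chromosome 18 windows the number of pieces hardly differed, at 12 and 10 in the first and 14 and 11 in the second, so the mark was present at M2 in fragments shorter than at P14.

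Neighbouring windows on chromosome 7 formed another dense pair. Cover in chr7:66600001-66700000 was 61% at P14 and 14% at M2, and in chr7:66700001-66800000 it was 53% and 8%. A pair on chromosome 15 was nearly free of domains at M2. In chr15:77400001-77500000, cover was 49% at P14 in 17 pieces and 2% at M2 in 1 piece of 2 kb. In chr15:77300001-77400000, it was 48% in 15 pieces and 4% in 2 pieces.

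The window chr12:30900001-31000000 had 47% at P14, in 14 pieces, and a single kilobase at M2, which did not lie in any of them. In chr3:129000001-129100000 cover was 60% at P14, with a piece of 34 kb, and 14% at M2, with no piece over 5 kb. The remaining windows of the 15 were chr12:109500001-109600000 (59% at P14, 16% at M2), chr12:56400001-56500000 (61%, 19%), chr6:126000001-126100000 (46%, 5%) and chr9:96800001-96900000 (78%, 37%). The first of these held a 15 kb stretch covered at P14 alone, from 109572001 to 109587000.

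Members were found on all 19 autosomes, from 6 windows on chromosome 19 to 24 on chromosome 6. As a share of the windows of a chromosome, they were most frequent on chromosome 17 (17 of 921, 1.85%), chromosome 12 (20 of 1181, 1.69%), chromosome 6 (24 of 1464, 1.64%) and chromosome 14 (19 of 1221, 1.56%). They were least frequent on chromosome 3 (8 of 1565, 0.511%), chromosome 2 (11 of 1786, 0.616%) and chromosome 10 (8 of 1269, 0.630%). Counted against only the windows with 20% or more at P14, chromosome 12 came first at 4.51%, followed by chromosomes 6 and 17 at 4.40% and 4.39%, and chromosome 3 was last at 1.38%. Total cover did not follow the same order: on chromosome 17 it was 23.3% at P14 and 29.7% at M2, and on chromosome 2 it was 22.9% and 28.4%. Along the span of the chromosomes, from the lowest to the highest coordinate in 5 equal parts, the members numbered 36, 61, 46, 42 and 66.

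**Figure D2:**
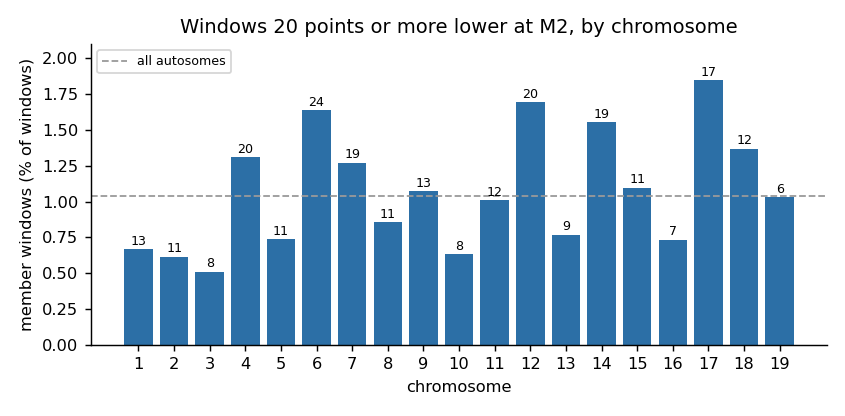
Member windows as a percent of all windows of each autosome (bars), with the number of members above each bar. The dashed line is the share over all autosomes, 1.04%; chromosome 17 stands highest at 1.85% and chromosome 3 lowest at 0.511%.

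At P14 the domains in member windows resembled those of other windows with a like amount of mark. Member windows held 2979 P14 domains, placed by their midpoint, with a mean length of 3.62 kb and a median of 2 kb. The other windows with 20% or more at P14 had a mean of 3.41 kb and the same median. Domains of 1 kb, the shortest the lists can hold, made up 30.5% of P14 domains in members and 33.4% in the other windows. Domains of 11 kb or more held 24.9% and 24.6% of the length. Each member held 2 to 21 P14 domains with a median of 12. By these measures the P14 domains of members and of the other windows were close in length and number, at 11.9 and 11.6 domains per window.

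Far fewer of these domains met an M2 domain than elsewhere, which follows in large part from how the members were picked. In members, 885 of the 2979 P14 domains (29.7%, exact Clopper-Pearson 95% interval 28.1 to 31.4) overlapped an M2 domain by at least 1 bp. In the other windows with 20% or more at P14 the share was 66.5%. The interval treats domains as independent draws, although all domains of 1 list per age were counted, in windows chosen by this difference. It is therefore no measure of the spread between animals. Of the P14-covered length, 29.8% was also covered at M2 in members, 68.5% in the other windows, and 58.0% over all autosomal windows.

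Long P14 domains with their midpoint in a member were more often still marked at M2 than short ones. Each domain was counted over its whole length. Some long ones ran past the member window, so their values include sequence outside the members. An M2 domain overlapped 10.8% of the 908 domains of 1 kb, 22.8% of the 1147 domains of 2 to 3 kb, and 45.0% of the 427 domains of 4 to 5 kb. The share was 57.9% for the 354 domains of 6 to 10 kb and 85.6% for the 104 domains of 11 to 20 kb. All 34 domains of 21 to 48 kb and all 5 longer ones overlapped an M2 domain. A long domain has more bases at which an overlap can occur, so the covered share of the length is given too, and it had the same order. M2 domains covered 10.8% of the length of 1 kb domains, 15.7% at 2 to 3 kb, 23.2% at 4 to 5 kb and 29.2% at 6 to 10 kb. The values were 43.7% at 11 to 20 kb, 66.2% at 21 to 48 kb and 84.1% for the 5 domains of 51 to 57 kb. The other windows with 20% or more at P14 had the same order at higher values, from 41.4% for 1 kb domains to 97.6% for the longest.

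**Figure D3:**
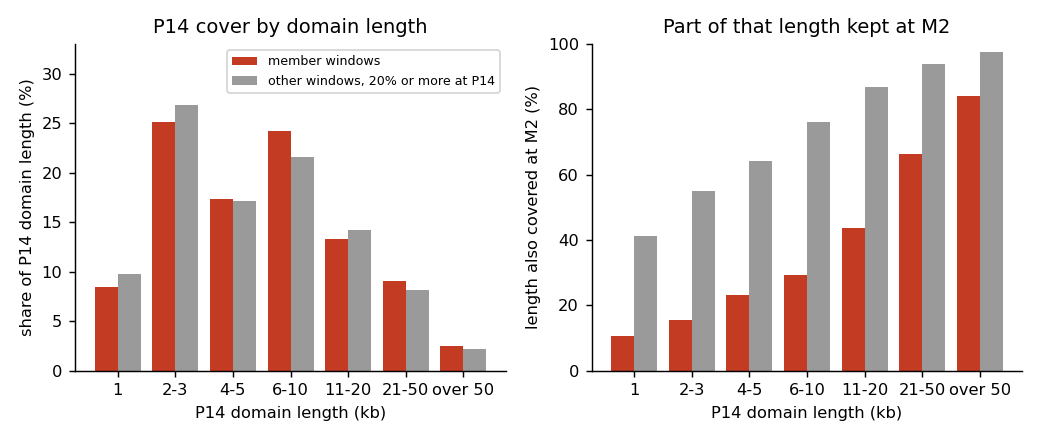
Left, share of the total P14 domain length (y axis, percent) in each class of domain length (x axis, kb). Right, percent of that length also covered at M2. Domains are placed by their midpoint and counted whole, also where they run past the window. Red bars are the 251 member windows and grey bars the other windows with 20% or more at P14; the length classes have similar shares on the left, while on the right member values run from 10.8% to 84.1% and lie below the grey bars in every class.

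The longest P14 domains with their midpoint in a member were mostly covered again at M2, counted over their whole length. The domain at chr15:102926001-102983000 measured 57 kb, of which 66.7% was in M2 domains. Its first 17 kb, up to 102943000, formed one of the longest stretches covered at P14 alone. The domains chr11:94779001-94834000 and chr7:145579001-145634000, both of 55 kb, began before the starts of their member windows, 94800001 and 145600001. They were covered at 96.4% and 94.5%. By contrast, the 38 kb domain chr4:88416001-88454000 was covered at 31.6% and the 37 kb domain chr12:56434001-56471000 at 48.6%. Of the 173 P14 domains of 10 kb or more in members, 22 were covered at 90% or more at M2, 93 at under 50%, and 23 not at all. These counts were not made for the other windows, and the members were picked for less M2 cover. At 11 to 20 kb, 85.6% of P14 domains in members overlapped an M2 domain, against 99.9% in the other windows with 20% or more at P14. The longest domain in members with no M2 cover was chr9:74694001-74712000, of 18 kb. It was followed by chr18:20773001-20789000 and chr9:122546001-122562000, of 16 kb each.

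The rims of the longer P14 domains were covered again at M2 less often than their middle. In the 497 P14 domains of 6 kb or more with their midpoint in members, 27.7% of the outermost 1 kb bins were also covered at M2. Of the inner bins, 46.2% were. In the other windows with 20% or more at P14 the values were 73.9% and 85.9%. Where M2 cover existed in a member, it lay mostly on ground already marked at P14. Of 4.23 Mb of M2 cover in members, 3.22 Mb (76.1%) lay inside P14 domains, against 56.9% in the other windows. Among sequence without P14 cover, 7.07% was covered at M2 in members and 34.1% in the other windows. In 42 members no base was covered at M2 alone, but these include the 12 members with no M2 domain at all. Because M2 cover must lie 20 points or more below P14 cover in a member, neither of these 2 contrasts is independent of the rule. The 76.1% became 71.6% at a limit of 15 points and 81.3% at 30 points.

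M2 domains in the members were also fewer and shorter than in the other windows with 20% or more at P14. Members were chosen for M2 cover below P14 cover, so this follows in large part from the rule. Members held 1279 M2 domains, with a mean length of 3.17 kb, against 4.67 kb in the other windows. In 237 members there were fewer M2 than P14 domains, in 4 the same number and in 10 more. These counts were not made for the other windows. The median member held 4 M2 domains. Of the 1279 M2 domains 1008 (78.8%) overlapped a P14 domain, and 631 (49.3%) lay wholly within P14 cover. In the other windows, 64.8% overlapped.

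In most members M2 cover was the lower over much of the window, though a few parts held most of the difference. Cut into 10 parts of 10 kb, a member held P14 cover in a median of 9 parts and M2 cover in a median of 4. M2 cover was the lower in 8 parts of the median member, and in at least 5 parts in 250 of the 251 members. In 129 members no part was covered more at M2. The 3 parts with the highest differences held a median of 63.6% of a window's difference, and 75% or more in 43 members. That share is raised by taking the highest of the 10 parts. The windows were picked for lower M2 cover, so the counts of parts follow in large part from the rule. They were not made for the other windows. Stretches covered at P14 alone numbered 3094 inside the members. Their median length was 2 kb, 1253 of them measured 1 kb, and the 364 of 5 kb or more held 32.7% of their length.

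Among the 39 such stretches of 10 kb or more, the longest inside a member was the 18 kb from 37763001 to 37781000 on chromosome 19. After the 17 kb on chromosome 15 and the 16 kb on chromosomes 9 and 18 given above, stretches of 15 kb lay at chr1:181817001-181832000, chr4:88439001-88454000 and chr9:42000001-42015000, besides the one on chromosome 12. Stretches of 13 kb lay at chr2:147862001-147875000, chr2:180763001-180776000 and chr11:53856001-53869000, as well as in the pair on chromosome 12. A 12 kb stretch at chr6:89182001-89194000, and the 12 kb of the chromosome 9 domain from 74700001 that lay inside its member window, closed the 15 longest. The chromosome 4 stretch forms the end of the 38 kb domain named above.

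Members lay near one another more often than windows in general lay near a member. Of the 251 members 86 (34.3%) had a member as a direct neighbour, against 1.98% of all windows and 2.41% of the other windows with 20% or more at P14. No chance level was computed for this. The 251 members formed 201 runs of adjacent windows, of which 165 were single windows, 27 were pairs, 5 held 3 windows, 3 held 4 and 1 held 5. A window 10 points or more lower at M2 adjoined 155 members (61.8%), against 11.6% of all windows. A window 20 points or more higher at M2 adjoined 12 members (4.78%), against 25.8% of all windows. A domain that crosses a window edge counts in both windows, and its part in these shares was not tested.

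The longest run covered 5 windows, chr17:11800001-12300000, at 51.2% at P14 and 15.8% at M2. Its windows had 42%, 44%, 47%, 73% and 50% at P14, and 4%, 5%, 10%, 32% and 28% at M2. M2 cover was thus 10% or less in the first 3 windows and 28% or more in the other 2. The window before the run had 21% at P14 and 4% at M2, while the window after it had 34% and 54%, so that the direction turned around at the far edge.

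Runs of 4 windows lay on chromosomes 12, 15 and 18. In chr15:77200001-77600000 cover was 43.8% in 56 pieces at P14 and 4.25% in 9 pieces at M2, a difference of 39.5 points and the highest of any run of 3 or more windows. The 300 kb before it were nearly free of domains, at 3.33% for P14 and 0.333% for M2, and so was the next window, at 2% and 1%, although the 300 kb after it held 27% at both ages. The run chr12:118600001-119000000 had 50.0% at P14 and 14.0% at M2. It adjoined a dense block: the 300 kb before it were covered at 65.7% at P14 and 76.3% at M2, and the 300 kb after it at 15.3% and 12.0%. The run chr18:24900001-25300000 had 57.0% and 19.8%, with sparse sides of 13.3% and 6% before it and 9.67% and 5.33% after it.

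**Figure D4:**
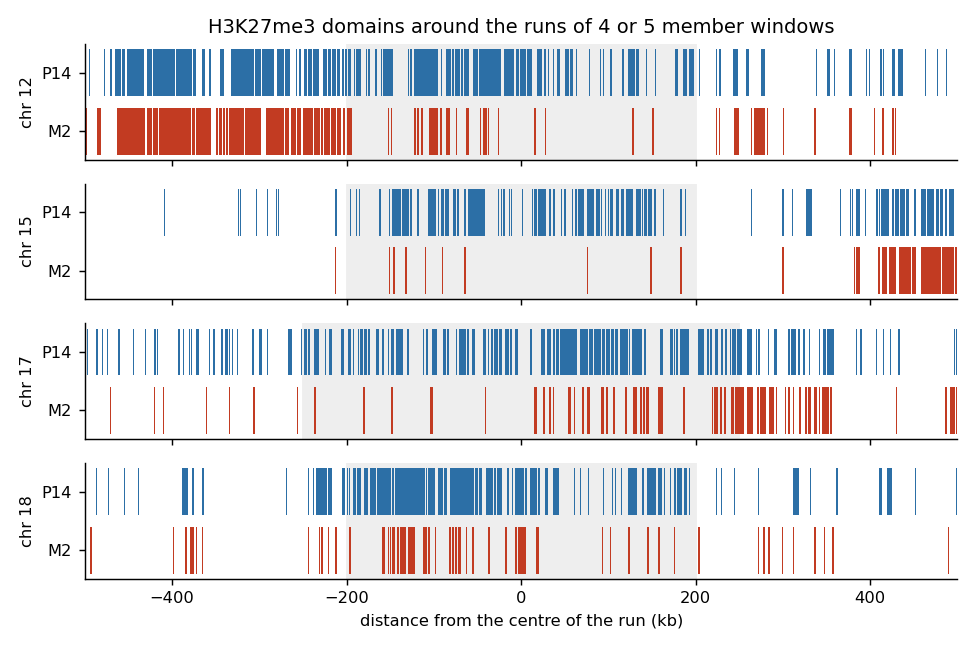
H3K27me3 domains within 500 kb of the centre of each run of 4 or 5 member windows, on chromosomes 12, 15, 17 and 18 (x axis, kb from the centre; blue bars P14, red bars M2; grey shading marks the run). The chromosome 15 run holds 56 pieces of cover at P14 and 9 at M2, and the chromosome 12 run adjoins a block that is dense at both ages.

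The 5 runs of 3 windows ranged more widely. On chromosome 6 the run from 23300001 to 23600000 held 41 pieces at P14, or 30.7%, and 6 pieces at M2, or 3%. The run chr6:89000001-89300000 had 48.0% and 21.3%, and followed a denser window with 77% in P14 domains and 90% in M2 domains. The run chr12:30800001-31100000 had 51.3% and 15.7% and lay between dense sides, at 79.3% and 77.3% before it and 50.0% and 54.7% after it. On chromosome 14 the run from 28900001 to 29200000 had 30.7% and 4.33%. The windows on both sides of it were also covered less at M2, by 15 and 18 points. The run chr18:78900001-79200000 had 49.7% and 29%, the smallest difference of the 9 runs at 20.7 points, and 38.3% of its P14 length was also covered at M2. The 27 pairs of windows had 23.5% to 57% at P14 and 1% to 29.5% at M2, with a median difference of 26.5 points.

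Joining members with no more than 500 kb between their starts gave 7 groups of at least 4 members, a limit chosen after the values were seen. The widest was chr4:60000001-61300000, where 8 of 13 windows were members and all 13 were covered less at M2. Its cover was 25.8% at P14, in 146 pieces, and 5.31% at M2, in 33 pieces. In chr14:28700001-29800000, 7 of 11 windows were members, all 11 were covered less at M2, and cover was 28.0% and 5.91%. In chr17:11500001-12300000, 6 of 8 windows were members and cover was 39.8% and 10.9%. The group chr6:23300001-23800000 held 4 members among 5 windows, with 29.4% and 5.4%. The other 3 groups were the runs of 4 windows. In the chromosome 4, 6 and 14 groups, P14 cover was modest and finely broken, and 8.16% to 12.7% of it was also covered at M2. The remaining members were scattered, and 145 of the 251 had no other member starting within 500 kb.

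Beyond the edge of a run the difference between the ages shrank quickly. The 10 kb just inside the edge were covered at 42.5% at P14 and 21.2% at M2, averaged over the 402 sides of the 201 runs. The first 10 kb outside had 34.7% and 25.4%, a difference of 9.33 points. From 50 to 60 kb outside the values were 31.5% and 29.7%, and from 90 to 100 kb they were 30.4% and 30.3%. The inside values are fixed by the choice of members. The outside ones are not, except that member windows were left out at every distance. No window counted outside a run is therefore 20 points or more lower at M2. From 100 to 110 kb outside the order was turned, with 29.4% at P14 and 31.0% at M2. Only 381 sides counted there, since other members first fall at that distance and were left out. How far leaving them out accounts for the turn was not tested. From 490 to 500 kb the values were 28.8% and 30.6%.

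**Figure D5:**
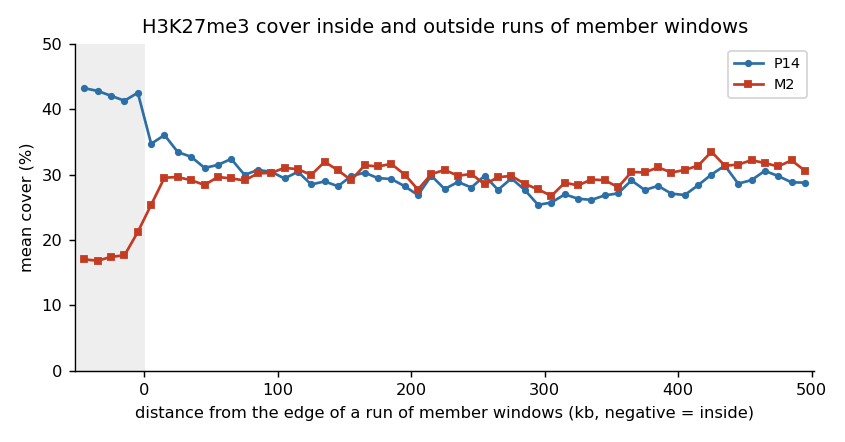
Mean percent of sequence covered by H3K27me3 domains (y axis) in bins of 10 kb by distance from the edge of a run of member windows (x axis, kb; both sides of all 201 runs; member windows left out beyond the edge). Blue circles are P14 and red squares M2, and the shaded part lies inside the runs. The curves meet at 90 to 100 kb, with 30.4% at P14 and 30.3% at M2.

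In whole windows, the 402 adjoining a run had a median difference of 4 points towards P14, with 275 covered less at M2 and 113 covered more. The neighbours of each of the other windows with 20% or more at P14, taken singly, had a median of 7 points towards M2. Such neighbours can belong to that same class and be counted more than once, so the medians are not measured alike. At 200 kb and 300 kb from a run the median was 1 point towards P14, at 400 kb it was 0, and at 1000 kb it was 1 point towards M2. Other members were left out at these distances, which can only move medians and means towards M2. The mean of P14 minus M2 was 3.22 points in the adjoining windows, and of the opposite sign to the median at 200 kb and 300 kb, at -1.53 and -1.13 points. At 400 kb the mean was -2.13 points. Over all autosomal windows the median was 5 points towards M2. By the median, the windows within 1000 kb of a run therefore lay between the member windows and the autosomes as a whole. Over the 5 windows on each side, other members left out, 133 members lay in surroundings covered less at M2 on average and 117 in surroundings covered more. Of the other windows with 20% or more at P14, 83.1% had surroundings covered more at M2. Domains of the 2 lists come from calls against a threshold that the sources used here do not give, and whether a weaker signal was present at M2 in the member windows was not tested.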

How the data were processed

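H3K27me3 ChIP-seq of mouse hepatocytes was deposited as 1 list of domains per age. The list of an age is named, per the labels, for all of its ChIP and input samples, so it was read as pooled. Each line gives a start and an end as the authors deposited them (other values: positions in bp on mm9), all multiples of 1000 bp. The score column was 0 throughout and was not used. STAR 2.4.2a, bedtools and mm9 are named in the submitters' processing notes, without their roles. No domain caller, threshold or read depth is named there or in the labels, so no interval that needs depth is given.

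Cover was computed on the 1 kb grid for windows of 100 kb starting at multiples of 100000 bp, on chromosomes 1 to 19, wholly between the first and last domain of either list. Python 3.11.15, numpy 2.4.6, pandas 2.3.3, scipy 1.17.1 and matplotlib 3.10.9 were used. Bedtools 2.31.1 gave the same cover in 24129 of 24129 windows for both lists. The code was also tested on a copy of the P14 list emptied in 200 windows, and found 200. With 1 list per age no test between ages was run. Coordinates are mm9, counted from 1. Named regions follow a written rule: runs of 3 or more members, the 15 largest differences, the 15 longest P14-only stretches, 5 windows on each side of the limit, extremes, and members without M2 domains. The groups within 500 kb, the 5% and 25% limits and the longest domains were added after their values were seen. Members and rules were chosen with earlier results of these data known. Genes and sequences were not placed on the windows, because no mm9 genome or annotation was used here.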

Additional observations from a re-analysis of the deposited data

How the results depend on the processing

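The number of members depended on the window size, the limit and the overall cover of the lists. It was 251 as reported, 1019 with windows of 50 kb, 51 with windows of 200 kb, 573 at a limit of 15 points, 57 at 30 points and 573 with the difference taken relative to the autosomal median. Trimming the M2 list from its shortest domains upward, to the autosomal length of the P14 list, gave 607, since less M2 cover was left. Stricter or joined lists and a grid starting 50 kb later gave 176 to 319. Of the 251 members, 169 were members with domains of 2 kb or more only, 213 with the longest 75% of each list and 247 with domains within 1 kb joined. On the later grid 176 of the 251 (70.1%) overlapped a member window.

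The share of members next to another member was 27.3% with domains of 2 kb or more and 23.5% with windows of 200 kb. The P14 length also covered at M2 was 30.9% with domains of 2 kb or more, 31.8% with joined domains, 26.8% on the later grid, 26.1% and 26.5% with windows of 50 and 200 kb, 30.7% at 15 points and relative to the median, and 24.2% at 30 points. In the order of these settings, the M2 length inside P14 domains was 77.8%, 78.3%, 74.4%, 72.8%, 73.4%, 71.6% and 81.3%. P14 domains overlapping an M2 domain were 34.8% with domains of 2 kb or more, 33.2% with joined domains, 27.1% on the later grid, 27.8% with windows of 50 kb, 25.8% at 30 points, and 19.7% where M2 had to cover 50% of the domain. The median difference in flanking windows was 2 points with domains of 2 kb or more, 2.75 with windows of 200 kb and 8 at 30 points. The flanking median stayed towards P14 in every setting. The other values are shares and have no direction to change. The 41 windows named for their difference or their run stayed lower at M2 in the 4 altered lists, by 17 to 59 points. These alternatives were chosen after seeing the data, and the windows were picked for this difference, so this adds no independent support. Where the M2 list was trimmed, only M2 domains were taken away, so no difference could fall, and the 59 points came from there. No paired analysis was possible because each age has 1 pooled list. No replicate could be left out for the same reason, and depth could not be assessed.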
